A study of Mus musculus with 12 samples.

Results

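The genes described here are 10 chemokine ligands, Cxcl9, Cxcl10, Cxcl11, Cxcl12, Cxcl16, Cxcl1, Ccl2, Ccl5, Ccl6 and Ccl8, taken by matching their symbols exactly to the identifiers of a table of 19852 genes. All 10 were found, and all 10 reached 0.5 RPKM (reads scaled by transcript length and by mapped reads) in at least 3 of 12 libraries, which was the filter that left 10568 genes for testing. The libraries came from whole livers of C57BL/6 mice at 20 weeks of age, in 4 groups of 3: female ARE-Del, male ARE-Del, female wild type (WT) and male WT littermates. ARE-Del mice lack an AU-rich element at the 3′ end of the Ifng transcript that shortens its life, so the allele acts in every cell that transcribes Ifng and is not specific to liver; the labels' protocol writes ARE-Del-/-, without naming the WT animals. No label says that each library is a separate animal, so p-values measure the spread between these libraries.

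Chemokines are small secreted proteins that steer leukocytes along concentration gradients by binding receptors that couple to G proteins. CXC chemokines carry 1 residue between the first cysteines of the protein, and CC chemokines carry none. In liver they are made by Kupffer cells (the resident macrophages), sinusoidal endothelium, stellate cells, hepatocytes and infiltrating leukocytes. Interferon-gamma (IFN-gamma), a T cell and NK cell cytokine, is known to induce Cxcl9, Cxcl10 and Cxcl11 through IRF1 and other factors, and NF-kB is known to drive inflammatory chemokines such as Cxcl1, Ccl2 and Ccl5.

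Ifng itself was low, at 0.208, 0.0898 and 0.238 RPKM in female ARE-Del, against 0.0208, 0.011 and 0.00957 RPKM in female WT. In males it was 0.0978, 0.123 and 0.0742 RPKM in ARE-Del, against 0.0382 RPKM in 1 WT library and 0 listed in the other 2. Every ARE-Del library was above every WT library of either sex, and an exact permutation of genotype within sex (2-sided) gave p = 0.005, the smallest that its 400 arrangements allow, and an adjusted p of 0.0624 over the genes below the filter. The liver label was checked on 8 hepatocyte markers, which summed to between 23145 and 41445 RPKM in every library. The library labelled female ARE-Del 2 stood apart: it had 0.0456 RPKM of Xist, the RNA of the inactive X chromosome, against 33.0 to 45.6 RPKM in the other 5 female libraries, and no Ddx3y, a Y-linked gene at 9.34 to 13.5 RPKM in males. Chemokine counts are therefore given with and without it. No read totals were used; steps between low values put the relative depth of the libraries between 0.909 and 1.45, and no counting interval could be given.

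Of the 10 chemokines, 8 rose in female ARE-Del livers and 7 of these rose in males, with none lower in either sex. In whole liver, more or fewer cells of a type and more or less RNA per cell cannot be told apart. In females, 8 of 10 passed limma's test with a Benjamini-Hochberg adjusted p under 0.05 in the upward direction, where 25.8% of all tested genes did (5.53% passed downward and 31.3% either way). In males 7 of 10 passed upward, where 19.5% of all tested genes did (2.04% downward and 21.5% either way). The median log2 change of RPKM + 1 over the 10 was 1.31 in females and 0.75 in males, beside 0.09 and 0.10 over all genes tested. Changes of low genes are understated on this scale, and mean levels of most of the 10 were lower in males. The ratio of mean RPKM, ARE-Del over WT, was higher in males for Cxcl9 (9.37, against 8.91 in females) and Ccl5 (8.89, 8.49). The same held for Ccl2 (4.30, 3.40) and Cxcl12 (1.14, 1.08). That ratio was higher in females for Cxcl10, Cxcl11, Cxcl16, Cxcl1, Ccl6 and Ccl8. Ccl2, Ccl5 and Ccl8 reached 0.5 RPKM in fewer than 3 WT libraries, as 8.44% of tested genes did, so they passed the filter through the ARE-Del libraries and their direction was bound to it; with no filter the counts were 8 in females and 5 in males, without Ccl2 and Ccl8 there. Without female ARE-Del 2 the counts were again 8 in females and 7 in males. All 3 ARE-Del libraries were above all 3 WT libraries of the same sex for 8 chemokines in females and 7 in males, as they were for 34.9% and 36.1% of tested genes. In 6 genes (Cxcl9, Cxcl10, Cxcl16, Ccl5, Ccl6 and Ccl8) all 6 ARE-Del libraries were above all 6 WT libraries, a pattern met by 14.5% of tested genes.

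Rescaling the libraries moved the general direction of calls but kept the chemokine counts in females. Among all genes called in females, 82.3% were higher in ARE-Del as deposited, 46.2% after median-of-ratios scaling and 39.3% after quantile normalization. In males these shares were 90.5%, 50.6% and 44.5%. The median of all genes moved to -0.03 and -0.07 in females, and to -0.02 and -0.05 in males, under the same pair of scalings. The number of chemokines that rose stayed at 8 in females under both, and in males it was 7 after the first of these and 5 after quantile normalization, where Ccl2 (adjusted p = 0.0742) and Ccl8 (adjusted p = 0.0794) no longer passed. The shares of all tested genes that rose, 25.8% in females and 19.5% in males, are for the filtered values as deposited, here and below. Such shares under the other scalings or with no filter are not given, so counts made there have none beside them.

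**Figure D1:**
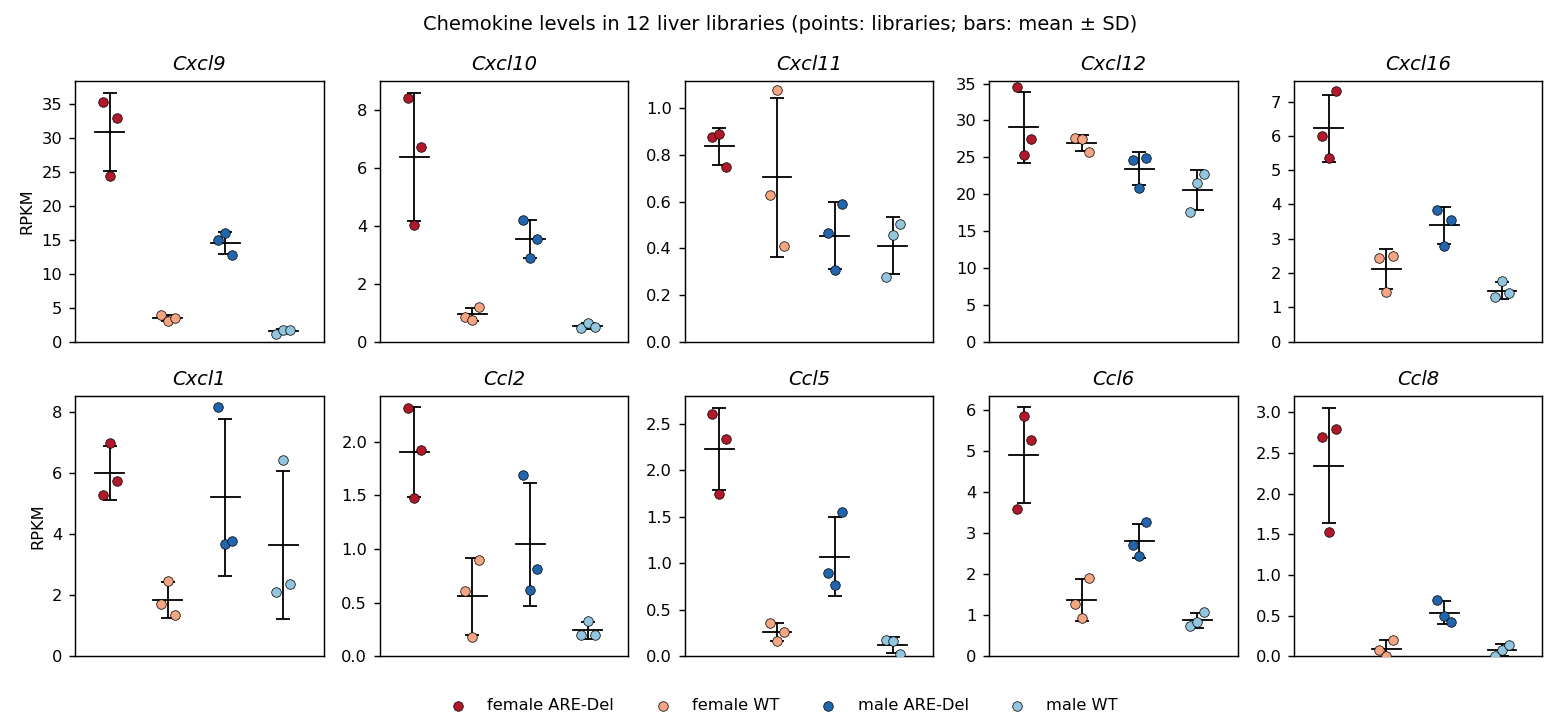
RPKM (vertical axes, each starting at 0) of the 10 chemokines in each of 12 liver libraries; points are libraries, and bars are the mean and SD of 3. Cxcl9 spans 24.4 to 35.3 RPKM in female ARE-Del, against 3.04 to 3.94 in female WT, while the Cxcl11 and Cxcl12 points of ARE-Del and WT overlap.

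Of the ligands of CXCR3, a receptor of activated T cells and NK cells, Cxcl9 and Cxcl10 rose in both sexes and Cxcl11 passed in neither. Cxcl9 had 35.3, 24.4 and 32.8 RPKM in female ARE-Del, against 3.94, 3.04 and 3.40 RPKM in female WT. In males it had 15.0, 15.9 and 12.7 RPKM in ARE-Del, against 1.17, 1.71 and 1.77 RPKM in WT. The groups were far apart in each sex, and even the lowest male ARE-Del library was above the highest female WT library. The ratio of mean RPKM was 8.91 in females and 9.37 in males. The log2 change was 2.82 ± 0.14 (SE) in females (adjusted p = 1.36e-07) and 2.61 ± 0.14 in males (adjusted p = 2.28e-07), ranking 27 and 24 among the 10568 changes from the most positive down.

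Cxcl10, the interferon-induced protein of the same receptor, had 8.39, 4.0 and 6.70 RPKM in female ARE-Del, against 0.863, 0.738 and 1.20 RPKM in female WT. Male libraries had 4.20, 2.89 and 3.55 RPKM in ARE-Del, against 0.454, 0.644 and 0.493 RPKM in WT. No ARE-Del library fell within the WT range, and the female ARE-Del libraries were the more scattered, with female ARE-Del 2 the lowest. Mean RPKM was 6.82 times as high in ARE-Del in females and 6.68 times in males, with log2 changes of 1.89 ± 0.19 (adjusted p = 8.99e-06) and 1.56 ± 0.19 (adjusted p = 1.13e-04).

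Cxcl11 differs from its neighbours in having, in C57BL/6 mice, a frameshift that leaves no working protein, although the transcript can be measured. It had 0.876, 0.890 and 0.747 RPKM in female ARE-Del, against 0.627, 1.08 and 0.409 RPKM in female WT. Male values were 0.466, 0.306 and 0.591 RPKM in ARE-Del, against 0.275, 0.456 and 0.504 RPKM in WT. The genotypes overlapped in both sexes. The log2 difference was 0.13 (95% interval -0.14 to 0.39, adjusted p = 0.469) in females and 0.04 (-0.22 to 0.31, adjusted p = 0.838) in males, and its sign turned under some settings, among them quantile normalization in both sexes (-0.05 in females, -0.11 in males). These intervals lie below the whole interval for Cxcl9 (2.51 to 3.13 in females, 2.30 to 2.92 in males), although values under 1 RPKM are compressed on this scale.

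Cxcl12, the ligand of CXCR4 that retains lymphocytes and stem cells in tissues, had the highest level of the 10 in WT livers. Its values were 34.5, 25.3 and 27.5 RPKM in female ARE-Del, against 27.6, 27.5 and 25.7 RPKM in female WT. In males they were 24.6, 20.9 and 24.9 RPKM in ARE-Del, against 17.5, 21.6 and 22.7 RPKM in WT. The genotypes overlapped in both sexes and no direction was called. The log2 difference was 0.10 (95% interval -0.17 to 0.36, adjusted p = 0.590) in females, turning to -0.09 under median-of-ratios scaling, and 0.18 (-0.08 to 0.45, adjusted p = 0.313) in males.

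Cxcl16 is made as a membrane protein, sheds a soluble form and binds CXCR6, which marks liver-resident T and NKT cells. It rose in both sexes, with 5.99, 5.36 and 7.30 RPKM in female ARE-Del, against 2.43, 1.45 and 2.49 RPKM in female WT. Male libraries had 3.84, 2.79 and 3.54 RPKM in ARE-Del, against 1.29, 1.76 and 1.42 RPKM in WT. The groups were apart in each sex. The log2 change was 1.22 ± 0.15 in females (adjusted p = 4.19e-05) and 0.82 ± 0.15 in males (adjusted p = 0.00184). The gene overlaps Zmynd15 in RefSeq, whose entry also rose, at 1.04 to 1.30 RPKM in female ARE-Del, against 0.334 to 0.521 RPKM in female WT (log2 change 0.61, adjusted p = 4.02e-05) and with a log2 change of 0.38 in males (adjusted p = 0.00264); whether reads were counted by strand is not stated in the sources, so reads of the pair cannot be told apart.

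Cxcl1, a ligand of the neutrophil receptor CXCR2 (listed as Il8rb), rose in females. It had 5.27, 6.99 and 5.72 RPKM in female ARE-Del, against 1.71, 2.47 and 1.35 RPKM in female WT, a log2 change of 1.31 ± 0.32 (adjusted p = 0.00775). In males it had 8.17, 3.67 and 3.76 RPKM in ARE-Del, against 2.10, 6.42 and 2.36 RPKM in WT. In each male genotype 1 library was far above its other 2, so the groups overlapped. The male log2 difference was 0.47 (95% interval -0.23 to 1.16, adjusted p = 0.327), and without male WT 2 it was 0.87 (adjusted p = 0.0389). The difference between the sexes, 0.84 (-0.14 to 1.83), did not pass (adjusted p = 0.537), so the change was not shown to differ between them.

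To set the changed CXC genes beside Cxcl12, the 250 bases before the start site were read from RefSeq promoter windows on GRCm38.p6, available for 6 of the 10 genes (Cxcl1, Cxcl9, Cxcl10, Cxcl12, Ccl6 and Ccl8). They were searched on both strands for an interferon-stimulated response element (ISRE, GAAANNGAAA), a gamma-activated sequence (GAS, TTCNNNGAA) and a kappaB site (GGGNNTTCC or GGGNNNTTCC, which can overlap each other). Capitals mark the ISRE and kappaB matches in the 4 windows shown, chosen because Cxcl9 and Cxcl10 had the largest log2 changes of RPKM + 1 (by the ratio of mean RPKM, Ccl5 and Ccl8 were above Cxcl10 in both sexes), Cxcl1 had another kind of pattern and Cxcl12 passed in no comparison of genotypes. The windows are Cxcl9 at chr5:92328080-92328329 (minus strand), Cxcl10 at chr5:92348890-92349139 (minus), Cxcl1 at chr5:90890995-90891244 (plus) and Cxcl12 at chr6:117168285-117168534 (plus).
Cxcl9: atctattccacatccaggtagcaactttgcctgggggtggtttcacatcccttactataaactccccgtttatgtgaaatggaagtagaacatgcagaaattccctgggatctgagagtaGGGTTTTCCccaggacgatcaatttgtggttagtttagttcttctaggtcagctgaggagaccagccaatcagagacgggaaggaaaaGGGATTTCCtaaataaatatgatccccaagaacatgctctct
Cxcl10: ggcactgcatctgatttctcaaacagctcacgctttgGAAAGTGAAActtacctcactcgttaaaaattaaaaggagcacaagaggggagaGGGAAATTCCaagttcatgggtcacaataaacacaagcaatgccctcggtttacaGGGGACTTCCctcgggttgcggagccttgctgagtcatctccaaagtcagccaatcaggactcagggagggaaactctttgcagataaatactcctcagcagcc
Cxcl1: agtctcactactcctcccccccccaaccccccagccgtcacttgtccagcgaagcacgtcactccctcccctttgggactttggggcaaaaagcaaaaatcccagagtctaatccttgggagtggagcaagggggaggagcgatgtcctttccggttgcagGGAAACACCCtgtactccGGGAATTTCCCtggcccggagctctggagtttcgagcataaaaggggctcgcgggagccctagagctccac
Cxcl12: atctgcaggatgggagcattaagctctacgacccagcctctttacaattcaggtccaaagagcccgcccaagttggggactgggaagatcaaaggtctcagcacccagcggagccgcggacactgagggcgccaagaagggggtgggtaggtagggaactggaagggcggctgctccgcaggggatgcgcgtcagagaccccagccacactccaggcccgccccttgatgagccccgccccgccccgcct
The ISRE letters occurred only in the Cxcl10 window among the 6, from base -213 to -204 (2.98% of 32851 mouse promoter windows of this length hold them). KappaB letters occurred in Cxcl9 (-130 to -122 and -42 to -34), Cxcl10 (-159 to -150 and -104 to -95) and Cxcl1 (-89 to -80 and -71 to -61, overlapping matches on both strands), and 8.26% of all windows hold them. GAS letters, held by 7.02% of windows, were in none of the 6, and the windows of Cxcl12, Ccl6 and Ccl8 held none of the 3 motifs. A match describes the letters and not a bound site. RefSeq places Cxcl1, Cxcl9, Cxcl10 and Cxcl11 on chromosome 5, Cxcl12 on chromosome 6, and Cxcl16 and the 4 CC genes on chromosome 11. Cxcl10 and Cxcl11 overlap Art3 there, which was listed at 0.142 to 0.376 RPKM over all 12 libraries, Ccl5 overlaps Gm32650 and Ccl6 overlaps E230016K23Rik, so their reads too cannot be told apart from those of the partner.

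Among the CC chemokines, Ccl2, Ccl5, Ccl6 and Ccl8 rose in both sexes. Ccl5 (RANTES), a product of T cells, NK cells and macrophages, had 2.61, 1.75 and 2.34 RPKM in female ARE-Del, against 0.359, 0.167 and 0.262 RPKM in female WT. In males it had 0.892, 0.763 and 1.56 RPKM in ARE-Del, against 0.178, 0.163 and 0.0206 RPKM in WT. Every ARE-Del library was above every WT library. The log2 change was 1.35 ± 0.13 in females (adjusted p = 9.07e-06) and 0.87 ± 0.13 in males (adjusted p = 6.72e-04), while the ratio of mean RPKM was 8.49 in females and 8.89 in males, close to that of Cxcl9. The smaller log2 values reflect the addition of 1 RPKM to low levels.

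Ccl6, a CCR1 ligand of mouse macrophages and myeloid cells, had 3.60, 5.85 and 5.28 RPKM in female ARE-Del, against 1.27, 0.926 and 1.92 RPKM in female WT. Male libraries had 2.71, 2.45 and 3.27 RPKM in ARE-Del, against 0.737, 0.827 and 1.08 RPKM in WT. The genotypes were apart in each sex. Log2 changes were 1.32 ± 0.16 in females (adjusted p = 5.90e-05) and 1.02 ± 0.16 in males (adjusted p = 9.28e-04).

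Ccl2, the CCR2 ligand that draws monocytes, had 2.31, 1.48 and 1.92 RPKM in female ARE-Del, against 0.605, 0.177 and 0.896 RPKM in female WT. In males it had 1.69, 0.621 and 0.814 RPKM in ARE-Del, against 0.197, 0.333 and 0.197 RPKM in WT. The groups were apart in each sex, with male ARE-Del 1 well above its group. The log2 change was 0.91 ± 0.19 in females (adjusted p = 0.00318) and 0.68 ± 0.19 in males (adjusted p = 0.0254). The male call was lost without male ARE-Del 1 (log2 change 0.47, adjusted p = 0.0867), male WT 1 (0.66, 0.0830) or male WT 3 (0.66, 0.0728).

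Ccl8, in mouse a ligand of CCR8, had the largest difference between the sexes of the 10. It had 2.70, 1.53 and 2.80 RPKM in female ARE-Del, against 0.0741, 0 and 0.204 RPKM in female WT. In males it had 0.696, 0.498 and 0.422 RPKM in ARE-Del, against 0, 0.0815 and 0.145 RPKM in WT. Each ARE-Del library was above all WT libraries, and the lowest female ARE-Del library was above the highest male one. The log2 change was 1.59 ± 0.14 in females (adjusted p = 2.71e-06) and 0.52 ± 0.14 in males (adjusted p = 0.0186), the male call being lost without male ARE-Del 1 (0.44, adjusted p = 0.0676) or male WT 1 (0.46, adjusted p = 0.0773).

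The change with ARE-Del was larger in females for 1 of the 10 chemokines, Ccl8, where 0.568% of all tested genes differed between the sexes in either direction. Outside female ARE-Del only male ARE-Del 1 (0.696 RPKM) reached 0.5 RPKM of Ccl8, so it passed the filter through female ARE-Del. The direction of its difference was therefore bound to the filter, and nothing is read from setting it beside that share. The difference of log2 changes was 1.08 ± 0.19 (95% interval 0.66 to 1.50, adjusted p = 0.0400). It held without female ARE-Del 2 (1.27, adjusted p = 0.00350), without male ARE-Del 1 (adjusted p = 0.0445) and without female WT 3 (adjusted p = 0.0486). Leaving out any other library took the adjusted p above 0.05: female ARE-Del 1 (0.0547) or 3 (0.101), male ARE-Del 2 (0.0877) or 3 (0.0528), female WT 1 (0.0848) or 2 (0.0946), and male WT 1 (0.0753), 2 (0.136) or 3 (0.106). A pseudocount of 0.1 in place of 1 gave 1.83 with adjusted p = 0.382; WT values of Ccl8 are close to 0. For Ccl5 the difference was 0.48 (0.07 to 0.89), which did not pass (adjusted p = 0.334), and for Cxcl9 it was 0.21 (-0.22 to 0.65, adjusted p = 0.802). Of all genes called here 76.7% had the more positive change in females, and 65.0% under median-of-ratios scaling.

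**Figure D2:**
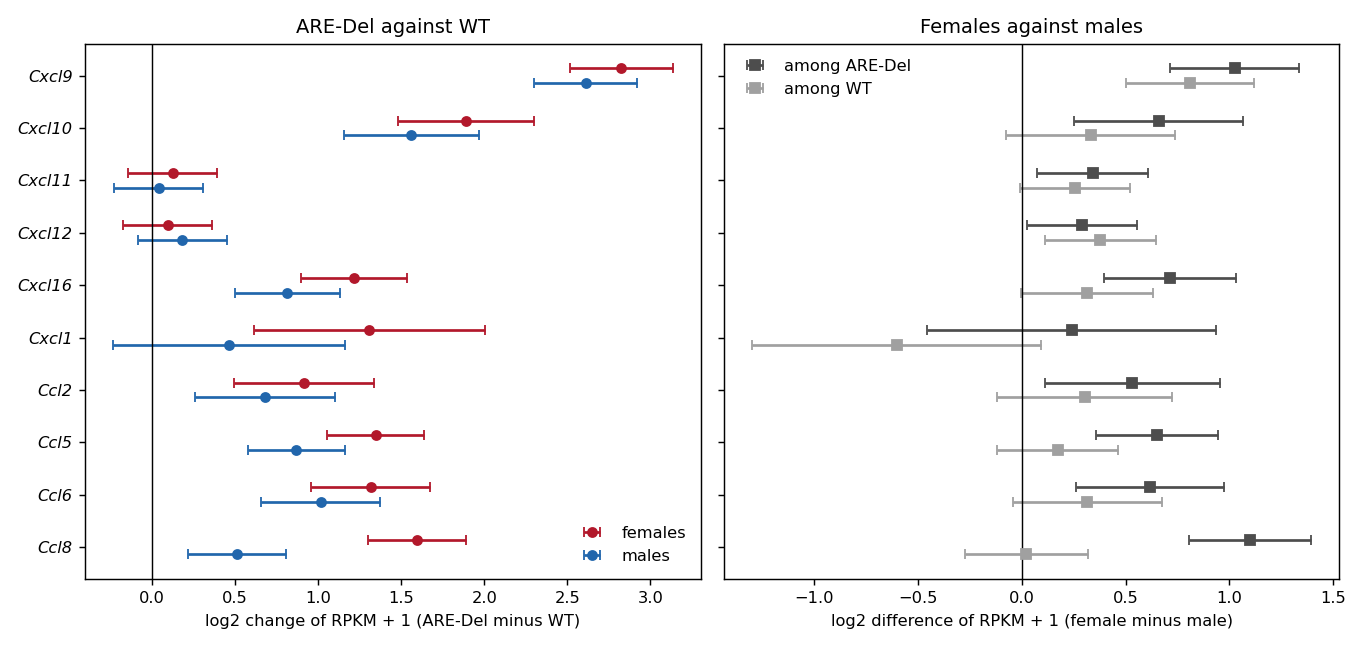
Log2 changes of RPKM + 1 of the 10 chemokines for ARE-Del minus WT (left, females and males) and log2 differences for female minus male (right, among ARE-Del and among WT); points are estimates and bars 95% intervals from limma. All female estimates in the left panel lie above 0.9 on the log2 scale except those of Cxcl11 (0.13) and Cxcl12 (0.10), and Ccl8 shows the widest gap between its female and male estimates (1.59 and 0.52).

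Levels themselves were higher in females for most of these genes among ARE-Del livers. In all, 6 of 10 passed in that direction (Cxcl9, Cxcl10, Cxcl16, Ccl5, Ccl6 and Ccl8), where 16.4% of all tested genes did (6.02% passed as lower in females and 22.4% either way), and 5 passed without female ARE-Del 2. For 7 of 10 all 3 female ARE-Del libraries were above all 3 male ones, as for 26.7% of tested genes. Ccl8, part of both counts, passed the filter through female ARE-Del, so its direction was bound to the filter and adds nothing to them. Of all genes called among ARE-Del livers, 73.2% were higher in females, falling to 49.7% after median-of-ratios scaling and 46.4% after quantile normalization. The calls of the 6 chemokines held under both of these scalings. The log2 difference was 1.10 for Ccl8 (adjusted p = 2.14e-04), 1.03 for Cxcl9 (adjusted p = 4.41e-04), 0.72 for Cxcl16 (adjusted p = 0.00427) and 0.65 for Ccl5 (adjusted p = 0.00451). It was 0.66 for Cxcl10 (adjusted p = 0.0256) and 0.62 for Ccl6 (adjusted p = 0.0185), and these were the less secure. The Cxcl10 call was lost without female ARE-Del 1 (0.0993), female ARE-Del 3 (0.0902), male ARE-Del 2 (0.105) or male ARE-Del 3 (0.0547), and that of Ccl6 without female ARE-Del 2 (0.0657), female ARE-Del 3 (0.0721) or male ARE-Del 2 (0.0756), all values being adjusted p. Ccl2 (0.53, adjusted p = 0.0685) passed without male ARE-Del 1 (0.0117) or female WT 2 (0.0418), and Cxcl11 (0.34, adjusted p = 0.0658) without female WT 2 (0.0181) or female WT 3 (0.0348).

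Among WT livers, Cxcl9 alone of the 10 was called, higher in females by 0.81 ± 0.14 (adjusted p = 0.00348), where 6.72% of all tested genes were called higher in females and 9.76% either way. No chemokine was called lower. The female to male ratio of mean RPKM of Cxcl9 was 2.12 among ARE-Del and 2.24 among WT. Cxcl10 and Cxcl12 had all 3 female WT libraries above all 3 male WT libraries without passing (0.33, adjusted p = 0.293, and 0.38, adjusted p = 0.0745), a pattern that with Cxcl9 makes 3 of 10 and that 18.9% of tested genes show. Cxcl12 passed without female ARE-Del 1 (adjusted p = 0.0428), and Cxcl16 (0.31, adjusted p = 0.201) passed without female WT 2 (0.48, adjusted p = 0.0386). Of all genes called among WT, 68.9% were higher in females, against 44.9% and 42.2% under median-of-ratios scaling and quantile normalization. The Cxcl9 call among WT held under both.

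The order of levels, which RPKM allows between genes because it is per length, changed with genotype. Cxcl12 came first in both WT groups, with every WT library above all WT values of the other 9 genes. In female ARE-Del Cxcl9 (30.8 ± 5.73 RPKM, SD, n = 3) and Cxcl12 (29.1 ± 4.80 RPKM) overlapped at the top, against 3.46 ± 0.454 and 26.9 ± 1.07 RPKM in female WT. In male ARE-Del Cxcl12 (23.5 ± 2.24 RPKM) remained above Cxcl9 (14.5 ± 1.64 RPKM), against 20.6 ± 2.72 and 1.55 ± 0.332 RPKM in male WT. Below them in female ARE-Del came Cxcl10, Cxcl16, Cxcl1 and Ccl6, whose neighbours in the order overlapped, then Ccl8, Ccl5 and Ccl2, which also overlapped one with the next, and Cxcl11 below all.

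Summed over the 10 genes, level was 90.7 ± 12.2 RPKM in female ARE-Del, against 38.3 ± 1.03 RPKM in female WT. In males it was 56.0 ± 5.79 RPKM in ARE-Del, against 29.5 ± 5.12 RPKM in WT. Cxcl9 made up 33.8% of that sum in female ARE-Del, against 9.03% in female WT, and 26.1% in male ARE-Del, against 5.23% in male WT. Cxcl12 made up 32.0% in female ARE-Del, against 70.4% in female WT, and 42.0% in male ARE-Del, against 70.2% in male WT. The 10 genes held 66.9%, 64.1%, 66.8% and 67.8% of the summed level of all matched chemokine ligands in female ARE-Del, male ARE-Del, female WT and male WT.

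**Figure D3:**
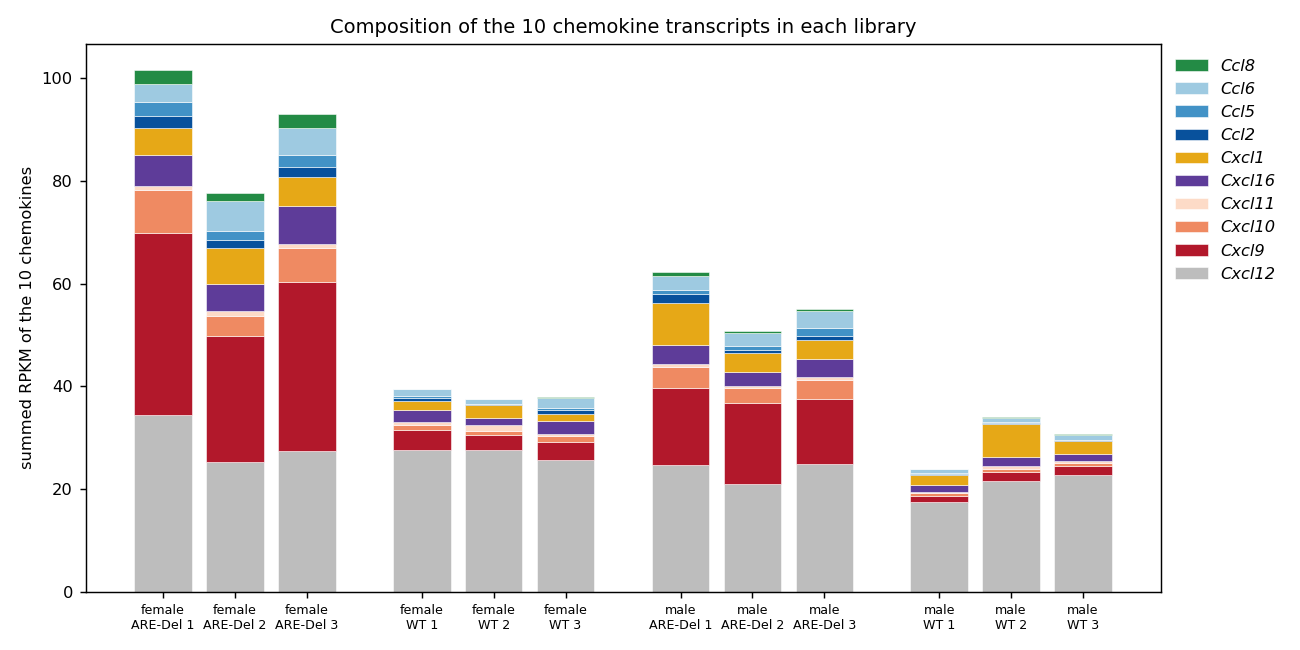
Stacked RPKM of the 10 chemokines in each of 12 libraries (vertical axis from 0; each colour is a gene). The grey Cxcl12 segment spans 17.5 to 34.5 RPKM, higher in each female bar than in the male bars of the same genotype, and the dark red Cxcl9 segment is tall in the 6 ARE-Del bars (12.7 to 35.3 RPKM) and thin in the 6 WT bars (1.17 to 3.94 RPKM).

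The lowest value of a group often came from the same library. Female ARE-Del 2 gave it for 7 of 10 chemokines, as for 58.2% of all tested genes, female WT 2 for 7 of 10 (62.6% of tested genes) and male WT 1 for 8 of 10 (57.1%), so genes in general were low in these 3 libraries. Male ARE-Del 2 gave it for 8 of 10, where 25.4% of tested genes had their lowest value. As a description over 12 libraries that share these groups, the genes whose log2 levels followed Cxcl9 most closely were Samhd1 (Pearson r = 0.995), Tap2 (0.992) and Hrasls3 (0.992). Cxcl10 was followed by Casp1 (0.995), Fgl2 (0.991) and Casp12 (0.989). For Ccl5 the closest were Cd274 (0.991), the gene of PD-L1, Cd7 (0.988) and Sp110 (0.987), for Ccl6 Ms4a6d (0.988), Cd53 (0.985) and Clec4a3 (0.985), and for Cxcl16 Cmtm3 (0.994), Axl (0.993) and Itm2c (0.993). Cxcl1 had the loosest closest gene, Fastk (0.914).

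The other ligands that could be tested moved the same way as the changed chemokines. Of 9 matched CXC, CX3C and XC ligands outside the 10, 2 passed the filter, and both rose in both sexes. Cxcl13, which attracts B cells through CXCR5, had 6.43, 11.3 and 12.7 RPKM in female ARE-Del, against 2.56, 1.06 and 1.49 RPKM in female WT, with log2 changes of 2.03 ± 0.29 in females (adjusted p = 1.77e-04) and 1.44 ± 0.29 in males (adjusted p = 0.00399). Xcl1, the lymphotactin of cytotoxic cells, changed by 0.75 in females and 0.61 in males. Of 16 matched CC ligands, 4 passed the filter and all 4 rose in both sexes as deposited, with Ccl24 not passing in females (adjusted p = 0.0625) and Ccl4 not in males (0.283) under quantile normalization. Ccl19, a CCR7 ligand, changed by 1.60 in females and 1.18 in males, Ccl4 by 0.84 and 0.29, Ccl9 by 0.78 and 0.84, and Ccl24 by 0.52 and 0.90. As deposited, 25.8% of all tested genes rose in females and 19.5% in males. Xcl1, Ccl4 and Ccl19 reached 0.5 RPKM in fewer than 3 WT libraries and passed the filter through the ARE-Del groups. They had to be higher there, so these counts support nothing further.

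Ligands below the filter were low in all groups. Ccl3 had 0.285, 0.483 and 0.556 RPKM in female ARE-Del, against 0.0487, 0.0514 and 0.157 RPKM in female WT. Ccl12, close to Ccl2 in sequence and function, had 0.479, 0.361 and 0.428 RPKM in female ARE-Del, against 0, 0 and 0.064 RPKM in female WT. Cxcl2 and Cxcl3, which share CXCR2 with Cxcl1, were under 0.1 RPKM in all 12 libraries. Other ligands went the other way. Cxcl14 had 0.228, 0.558 and 0.146 RPKM in female ARE-Del, against 0.331, 0.612 and 0.487 RPKM in female WT. Its unadjusted exact permutation p over both sexes was 0.11. Ccl17, Ccl20, Ccl21b, Ccl21c, Ccl25 and Ccl27 also had lower means in ARE-Del, summed over the sexes, with no such p under 0.05. Of 71 listed genes below the filter, 28 had an unadjusted exact permutation p under 0.05 (27 higher in ARE-Del) and none passed adjustment, where 16.1% of all genes below the filter had such a p with the higher level in ARE-Del. None of all 9284 genes below the filter passed adjustment in either direction. Even the smallest possible p, 0.005, gave an adjusted p of 0.0624, so nothing is read from the lack of a pass.

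Receptors of these chemokines were read from a list of 19, of which 8 passed the filter, 7 of them through the ARE-Del libraries, since they reached 0.5 RPKM in fewer than 3 WT libraries. In females 7 rose and in males 4 did; under quantile normalization these counts were 6 and 3, and under median-of-ratios scaling 5 and 3 of 6 tested. Of all tested genes 25.8% rose in females and 19.5% in males, but the filter set the direction of these receptors, so nothing is read from their counts. Ccr2, the receptor of Ccl2, rose by 0.68 in females, with a male value of 0.34 that did not pass (adjusted p = 0.0833). For Cxcr3, the receptor of Cxcl9 and Cxcl10, the change was 0.67 in females (adjusted p = 0.00483), with 0.41 in males that did not pass (adjusted p = 0.0697).

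Cx3cr1, Xcr1 and Ccrl2 rose in both sexes, by 0.66, 0.66 and 0.50 in females and by 0.24, 0.40 and 0.43 in males, except that Cx3cr1 did not pass in males under quantile normalization (0.05, adjusted p = 0.617). Cxcr4, the receptor of Cxcl12, rose by 0.42 in females as deposited (adjusted p = 0.00232), and not under quantile normalization (0.22, adjusted p = 0.112). Cxcr6, the receptor of Cxcl16, had a female value of 0.59 that did not pass (adjusted p = 0.0527). Ccr8, the receptor of Ccl8 in mouse, was under 0.1 RPKM in all 12 libraries. Ackr2 (listed as Ccbp2), a scavenger of CC chemokines, rose in females by 0.35 as deposited (adjusted p = 0.0289), with 0.26 and 0.18 under the other scalings, where it did not pass. Its male value as deposited was close, at 0.33, and did not pass (adjusted p = 0.0505). The difference between the sexes was 0.02 (adjusted p = 0.984).

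Of 7 listed proteases that act on chemokines, 4 passed the filter. In females 3 rose and 1 fell, and in males 3 rose, the rises numbering 2 in each sex under the other scalings. Of all tested genes 25.8% rose in females and 19.5% in males as deposited. Adam10 and Adam17, which shed Cxcl16 from the membrane, rose by 0.51 and 0.62 in females and by 0.41 and 0.39 in males. Dpp4, which trims the amino end of Cxcl9, Cxcl10 and Cxcl12, fell in females, with 6.37, 5.72 and 5.70 RPKM in ARE-Del, against 8.60, 7.61 and 8.03 RPKM in WT (log2 change -0.39 ± 0.08, adjusted p = 0.00308). In males its value was 0.02 as deposited and -0.14 under median-of-ratios scaling (adjusted p = 0.882 and 0.115). Furin, called up in both sexes as deposited (0.23 and 0.32), passed in neither under the other scalings.

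**Figure D4:**
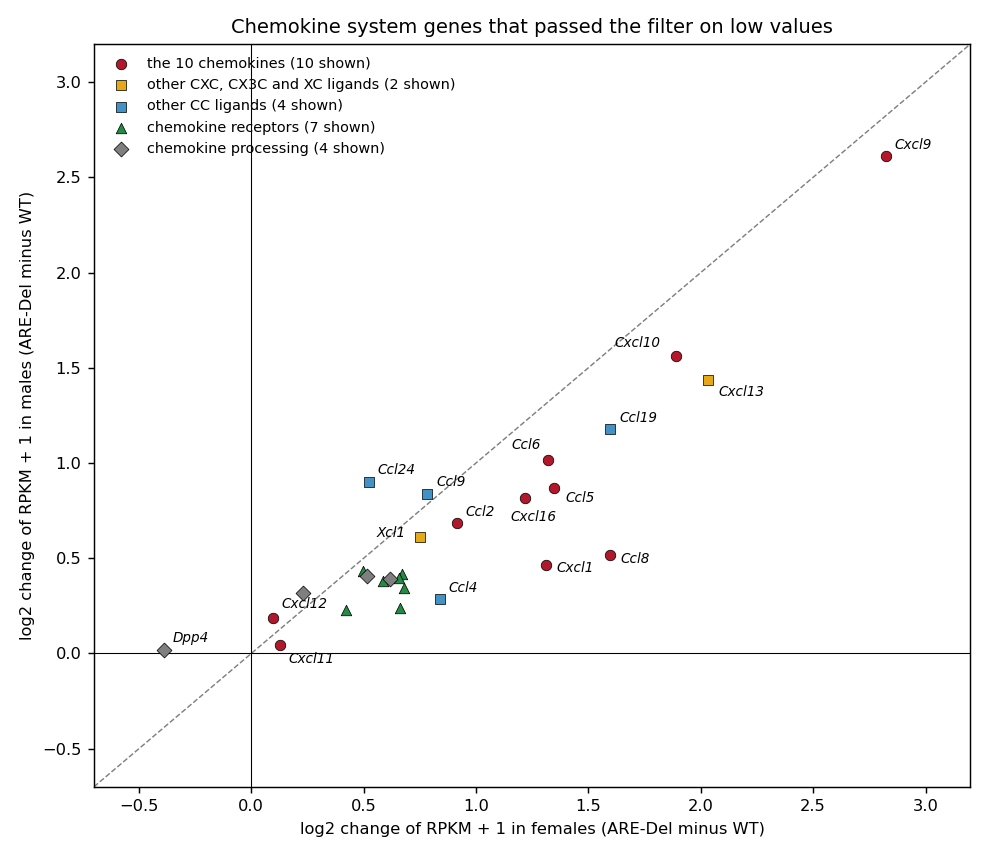
Log2 change of RPKM + 1, ARE-Del minus WT, in females (horizontal) against males (vertical) for the chemokines and the ligands, receptors (7 of the 8 tested) and proteases that passed the filter; each point is a gene, and the dashed line marks equal changes. Among the 10 chemokines 9 lie below the dashed line, Cxcl9 is farthest out (2.82 and 2.61), Ccl24 lies above the line (0.52 and 0.90), and Dpp4 is left of 0 (-0.39). Distance from the line depends in part on level, since adding 1 RPKM shrinks the log2 changes of low genes.

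Genes of the IFN-gamma pathway rose in 8 of 8 tested in females and 7 of 8 in males, where 25.8% and 19.5% of all tested genes did. The counts were 7 and 5 under both other scalings, and Irf8 passed the filter through the ARE-Del libraries. The part of this pathway in the values of Cxcl9 and Cxcl10 was not tested. Irf1, a transcription factor of the pathway, had a log2 change of 1.39 in females and 1.59 in males. Irf8 changed by 1.43 and 0.95, Ifngr1 by 0.80 and 0.69, and Ifngr2 by 0.52 and 0.29 in females and males; Ifngr2 did not pass in males under the other scalings. Socs3, a feedback inhibitor, rose by 0.78 in females, with a male value of 0.42 that did not pass (adjusted p = 0.0686).

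The part of the NF-kB pathway in the values of Cxcl1, Ccl2 and Ccl5 was not tested. Its genes rose in 10 of 10 tested in females and 8 of 10 in males, where 25.8% and 19.5% of all tested genes did. The counts became 9 and 5 after median-of-ratios scaling and 9 and 4 after quantile normalization, and 4 of the 10 (Il1b, Tnf, Tnfaip3 and Relb) passed the filter through the ARE-Del libraries. Il1b, a cytokine that induces Cxcl1 and Ccl2, had 3.10, 3.11 and 2.23 RPKM in female ARE-Del, against 0.296, 0.226 and 0.506 RPKM in female WT. Its log2 change was 1.50 in females and 0.70 in males, and the difference of 0.80 passed as deposited (adjusted p = 0.0378). That call was lost in 14 of 20 alternatives, among them median-of-ratios scaling (adjusted p = 0.0730) and the omission of any of 9 of the 12 libraries, with adjusted p between 0.0317 and 0.382 over all 20. Tnfaip3 changed by 0.86 and 0.52, Nfkb2 by 0.72 and 0.39, Tnf by 0.70 and 0.38, Tnfrsf1a by 0.68 and 0.33, and Nfkbia by 0.66 and 0.56 in females and males; in males Tnfrsf1a and Nfkbia did not pass under either other scaling, and Tnf did not pass under quantile normalization.

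Markers of cells that make or follow these chemokines moved with genotype. Monocyte and macrophage markers summed to 163 to 182 RPKM in female ARE-Del, against 22.1 to 37.2 in female WT, and to 99.6 to 125 RPKM in male ARE-Del, against 15.0 to 29.1 in male WT; 7 of 7 tested rose in females and 6 of 7 in males (5 under quantile normalization). Kupffer cell markers summed to 568 to 676 RPKM in female ARE-Del, against 116 to 201 in female WT, and to 315 to 383 RPKM in male ARE-Del, against 81.8 to 133 in male WT. In each sex 8 of 9 rose, and Cd163 fell in females. Of all tested genes 25.8% rose in females and 19.5% in males. The monocyte and macrophage list shares Ccr2 and Cx3cr1 with the receptor list, and both passed the filter through the ARE-Del libraries. Their part in the chemokine result was not tested.

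Lymphocyte markers moved the same way at lower levels. T cell markers summed to 4.20 to 7.70 RPKM in female ARE-Del, against 0.562 to 1.66 in female WT, and to 2.34 to 4.19 RPKM in male ARE-Del, against 0.695 to 0.988 in male WT; 5 of 5 tested rose in females and 4 of 5 in males, the male count being 0 under quantile normalization. NK and cytotoxic markers rose in 4 of 4 tested in each sex, with Eomes under 0.1 RPKM in all libraries. Dendritic cell markers rose in 2 of 2 tested in each sex (1 in males under quantile normalization), and Itgax had a difference between the sexes of 1.02 that passed as deposited (adjusted p = 0.0420) and was lost in 15 of 20 alternatives, among them both other scalings and the omission of any of 9 of the 12 libraries (adjusted p between 0.0182 and 0.293). Neutrophil markers, the cells that CXCR2 ligands attract, rose in 2 of 3 tested in females and 1 of 3 in males (0 under quantile normalization), with Mpo under 0.1 RPKM in all libraries, and of the B and plasma cell markers 2 of 4 passed upward in each sex. All 5 T cell, all 4 NK and cytotoxic and both dendritic cell markers tested passed the filter through the ARE-Del libraries, as did 1 of the 3 neutrophil and 2 of the 4 B and plasma cell markers, so their direction was bound to the filter and nothing is read from these counts.

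Tissue markers moved unevenly. Tff3, a trefoil peptide of mucous epithelia on the cholangiocyte list, had 6.43, 16.0 and 5.65 RPKM in female ARE-Del, against 0 listed in all 3 female WT libraries, and 50.3, 11.2 and 76.5 RPKM in male ARE-Del, against 0.429, 0.642 and 0.407 RPKM in male WT, with log2 changes of 3.24 and 4.61. Lyve1, a hyaluronan receptor of sinusoidal and lymphatic endothelium, changed by 1.59 in females and 1.62 in males. It stood apart from its list, whose median log2 change was 0.06 in females and 0.40 in males. In females Pecam1 also passed (0.68), while Cdh5 (0.47), Clec4g (0.11), Oit3 (0.008), Stab2 (-0.002), Kdr (-0.03) and Tek (-0.07) did not. None of these other endothelial markers passed in males. Cholangiocyte markers summed to 17.2 to 23.5 RPKM in female ARE-Del, against 5.84 to 8.09 in female WT, and to 26.0 to 84.4 RPKM in male ARE-Del, against 7.49 to 8.06 in male WT. These sums include Tff3 and do not show a rise of the whole list. Spp1 did not pass in females (adjusted p = 0.114) or males (adjusted p = 0.184). Below the filter, Krt19, Krt7, Epcam (listed as Tacstd1) and Cftr had unadjusted exact permutation p of 0.475, 0.565, 0.275 and 0.14. Endothelial markers rose in 2 of 8 tested in females and 1 of 8 in males, stellate cell markers in 2 of 7 and 3 of 7, cholangiocyte markers in 2 of 3 in each sex (Tff3 and Sox9 having passed the filter through the ARE-Del libraries), and hepatocyte markers in 1 of 8 in females, and in males 4 of 8 rose and 1 fell. Of all tested genes 25.8% rose and 5.53% fell in females, and 19.5% rose and 2.04% fell in males. The female endothelial and stellate counts were near that share, and nothing is read from these counts. Under quantile normalization the stellate count was 1 up and 1 down in females and 1 up in males, and the hepatocyte count 2 up and 1 down in females and 3 up in males; after median-of-ratios scaling they were 1 up in each sex for stellate markers, and 1 up and 1 down in females and 2 up and 2 down in males for hepatocyte markers. None of 3 tested erythroid markers passed in either sex, the 1 tested pancreatic acinar marker fell in both, and the 1 tested adipocyte marker rose in females. The part of any of these cells in the chemokine values was not tested.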

How the data were processed

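Liver RNA from 12 libraries was sequenced after TruSeq preparation, per the labels' protocols. The deposited table holds RPKM per gene made by the authors; the submitters' processing notes name Trimmomatic 0.30, TopHat2 2.0.8, Partek, GenomeStudio 6.6 and the mm9 build, and the counting rule is not given in the sources used here. Genes with at least 0.5 RPKM in at least 3 libraries (10568 of 19852) were fitted as log2(RPKM + 1) in R 4.3.3 by limma 3.58.1, with a mean for each of the 4 groups from all 12 libraries and eBayes with trend. Adjusted p is Benjamini-Hochberg over all genes tested within each of 5 comparisons, called under 0.05, 2-sided. Log2 changes on this scale understate those of low genes; errors are SE for log2 changes and SD for RPKM. The 9284 genes below the filter with a value above 0 were tested by exact permutation of genotype within sex. With 3 against 3 libraries an exact test alone could not go below p = 0.1.

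The 10 chemokines and the gene lists (199 entries, 183 matched by symbol, RefSeq synonym or a merged entry of the same family) were chosen with earlier results of these data known. From each pathway list up to 6 called genes with the largest change in females were named, and for each chemokine up to 3 genes with the highest correlation. Receptors of the chemokines, ligands below the filter, Ackr2, Cd163, Itgax, Tff3, Lyve1 and Zmynd15 were named outside this rule after their values were seen. The other cholangiocyte and endothelial markers were named in the same way. Alternatives were pseudocounts of 0.1 and 0.5, no filter, a minimum of 1 RPKM, median-of-ratios and quantile scaling, eBayes without trend, a replicate block, only the compared groups, and each library left out; those for genes below the filter were added after seeing the data. Some listed genes are counted with their lists and are not reported singly here. Scripts were tested on simulated data. Figures were made with matplotlib 3.10.9 under Python 3.11.15, using numpy 2.4.6 and pandas 2.3.3.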

Additional observations from a re-analysis of the deposited data

Results flagged for a closer look

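The change of Ccl8 with ARE-Del was larger in females than in males by 1.08 ± 0.19 on the log2(RPKM + 1) scale (limma, adjusted p = 0.0400), which marks it as a difference between groups by a test of the interaction. The female change was 1.59 and the male change 0.52, and all 3 female ARE-Del libraries were above all 3 male ARE-Del libraries. The adjusted p was above 0.05 in 12 of 20 alternatives. Ccl8 passed the filter on low values through female ARE-Del, so the direction of this difference was bound to the filter.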

How the results depend on the processing

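Of the values for single chemokines over all alternatives, 979 kept their direction and side of the threshold, 31 kept the direction and lost the call, 9 gained one and 16 changed sign. Those 16 were uncalled values near 0. Cxcl11 turned in females under quantile normalization (-0.0486) and without female WT 3 (-0.00153), in males under median-of-ratios scaling (-0.00822), quantile normalization (-0.107), without male ARE-Del 3 (-0.025) and without male WT 1 (-0.0295), and in the difference between the sexes without female WT 3 (-0.0437). Cxcl12 turned in females under median-of-ratios scaling (-0.0869) and without female ARE-Del 1 (-0.0292), and in the difference between the sexes under quantile normalization (0.00955), without female ARE-Del 2 (0.0029) and without male WT 1 (0.0188). Cxcl9 turned in that difference with a pseudocount of 0.1 (-0.055), and Ccl8 in females against males among WT under quantile normalization (-0.0429), without female WT 3 (-0.0511) and without male WT 1 (-0.0302). The highest values on leaving out 1 library were 0.279 for Cxcl11 and 0.187 for Cxcl12 in females, 0.117 for Cxcl11 in males, 0.236 for Cxcl11 in the difference and 0.083 for Ccl8 among WT, and the lowest for Cxcl12 in the difference was -0.213. The count of genes whose change differed between the sexes was 60 as reported, 14 and 15 with pseudocounts of 0.1 and 0.5, 30 with no filter, 32 with a minimum of 1 RPKM, 106 under quantile normalization, 39 without trend and 32 under the replicate block. The 1 chemokine called there was 0 with either smaller pseudocount and with no filter. Leaving out 1 library at a time gave 2297 to 3272 genes in females, 1259 (without male WT 1) to 2481 in males, 0 (without male WT 1) to 74 for the difference, 1367 (without female ARE-Del 3) to 2494 between the sexes among ARE-Del and 525 (without male WT 1) to 1116 among WT. It gave 8 to 8, 5 to 8, 0 to 1, 4 to 8 and 1 to 2 chemokines in the same order. Without a filter the male calls of Ccl2 (adjusted p = 0.0770) and Ccl8 (0.0568) and the Cxcl10 (0.0685) and Ccl6 (0.0533) calls between the sexes among ARE-Del were lost, and with only the 2 groups fitted Cxcl10 (0.0750) was lost and Cxcl11 (0.0237) gained there. A minimum of 1 RPKM left Cxcl11 untested. The cause was not tested. Replicate numbers did not pair the libraries: same-numbered libraries correlated at -0.29 to 0.24 in their deviations from the group means, over 0.1 in 5 of 18 pairs, and 2 of 12 libraries correlated best with their own number; the replicate block, given as a check, moved the call of 1 chemokine, Ccl2, between the sexes among ARE-Del (adjusted p = 0.0427). Cxcl11 and other genes near 0.5 RPKM are limited by depth, which is unknown here.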

Other observations

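Mmp12, a macrophage elastase that cleaves several chemokines, was below the filter and uneven within groups. It had 0.976, 0.0512 and 0.0882 RPKM in female ARE-Del, against 0.0182, 0.0193 and 0.042 RPKM in female WT. In males it had 0.526, 0.046 and 0.0228 RPKM in ARE-Del, against 0.0067, 0.00502 and 0.0312 RPKM in WT. The first library of each ARE-Del group was far above the other 2, and the exact permutation of genotype within sex gave p = 0.01 (adjusted p = 0.0930 over the genes below the filter).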
